A study of Mus musculus with 8 samples.

Results

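The genes described here are 10 members of the bone morphogenetic protein (BMP) pathway in the embryonic mouse hippocampus. They comprise the ligand genes Bmp4, Bmp5, Bmp6 and Bmp7, the receptor genes Bmpr1a, Bmpr1b and Bmpr2, and the Id genes Id1, Id3 and Id4. They were picked by name from the 16397 genes of the count table, with earlier results of these data known. All 10 passed the filter on low counts and are among the 13707 protein-coding genes tested. The study modelled intrauterine growth restriction (IUGR) by raising the blood pressure of pregnant C57Bl/6J dams. From E12.5, a micro-osmotic pump in each dam delivered U-46619, an analog of thromboxane A2, in the IUGR group and vehicle alone in the sham group, so that the dams of both groups carried a pump. Offspring hippocampi of both sexes were dissected at E15.5, and total RNA of 4 IUGR and 4 sham samples was sequenced. The animals are wild type, and the drug was given to the mother, so the comparison is between offspring of treated and of vehicle dams. The IUGR samples are named T1-1, T1-3, T1-4 and T1-5, and the sham samples S1-4, S1-6, S3-1 and S3-4. The meaning of the prefixes T1, S1 and S3, and which samples share a litter, are not given in the sources used here. Every IUGR name carries T1 and every sham name S1 or S3, so prefix and group cannot be told apart. The p values treat the samples as independent, which litter mates would not be.

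BMPs are secreted dimers that bind a complex of type I receptors, such as Bmpr1a and Bmpr1b, and the type II receptor Bmpr2. The type II receptor activates the type I receptor, a serine/threonine kinase, which phosphorylates Smad1, Smad5 and Smad9. These enter the nucleus with Smad4 and induce the Id genes among others. Id proteins are helix-loop-helix proteins without a DNA binding region, and they hold E proteins and other partners away from DNA. In the embryonic forebrain, BMPs are made at the dorsal midline, in the cortical hem and the choroid plexus beside the hippocampus, and also in the meninges.

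The question put to the data was whether transcripts of these genes differed between IUGR and sham hippocampi. Reads counted on genes per library ran from 12919546 to 16672463 for IUGR and from 11212632 to 15405748 for sham. Values below are CPM, the counts of a gene scaled to 1000000 reads, with library sizes adjusted by the trimmed mean of M values (TMM). The hippocampal label was compared with 5 markers of the embryonic hippocampus, Zbtb20 and Emx1 among them, and all 5 were detected in every library, with a summed level between 493 and 579 CPM in IUGR and between 422 and 995 CPM in sham samples. All 5 had log2 fold changes below 0 (median −0.56), none was called, and 1 had an unadjusted edgeR p under 0.05 (Prox1, named after its values were seen). The library T1-3 stands apart. All 10 markers of meningeal fibroblasts were higher in it than in the other IUGR libraries, and 9 of the 10 were higher in it than in any of the 8 libraries. The comparisons of IUGR with sham by edgeR for the 10 genes are given with and without T1-3, which was singled out after its values were seen. In a bulk sample, fewer cells of a type and less RNA per cell cannot be told apart.

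None of the 10 genes was called different between IUGR and sham offspring with all 8 libraries. Calling required an edgeR adjusted p of at most 0.05 and a change of 1 or more on the log2 scale, up or down, and 1.46% of all tested genes were called. None of the 10 reached an unadjusted edgeR p under 0.05, which 11.1% of all tested genes did, and in none were the IUGR and sham groups without overlap, which held for 7.14% of all tested genes. DESeq2's Wald test and limma-voom called 0 of the 10 as well, against 425 and 328 of the 13707 tested genes. Counting unadjusted p values under 0.05, DESeq2 gave 0 and limma-voom 1, which was Id3 (limma-voom adjusted p = 0.437). The matching shares of all tested genes with DESeq2 and limma-voom are not given here, so this count is not read as a result. Over all tested genes the median log2 fold change was −0.02.

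**Figure D1:**
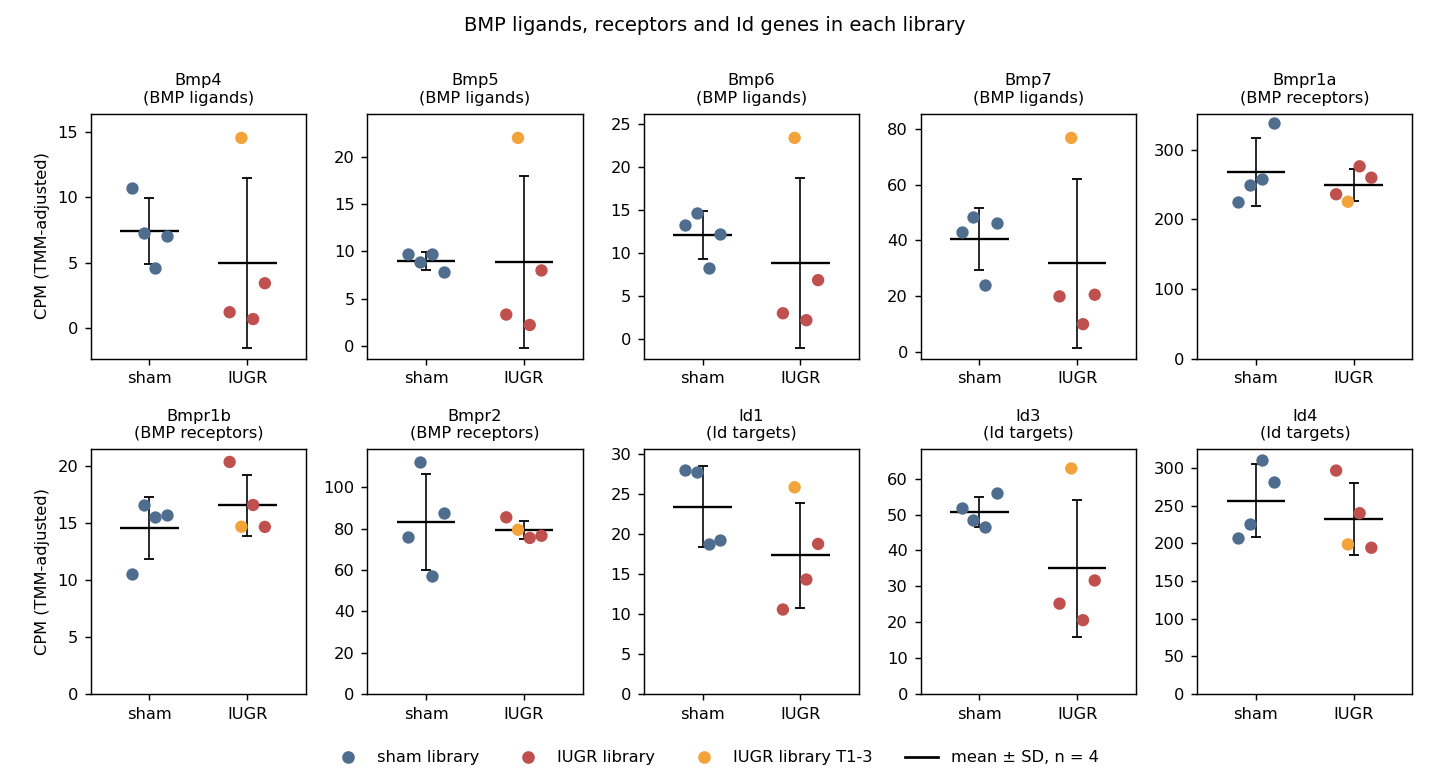
Level of each of the 10 genes in every library, as TMM-adjusted CPM on a linear axis, with the mean and SD of each group of 4 as a bar and whisker. For Bmp4, Bmp5, Bmp6 and Bmp7 the IUGR library T1-3, in orange, lies above every sham library, and T1-1 and T1-4 lie below every sham library.

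Levels of different genes were compared per kilobase of exon, in CPM per kb. In the sham samples Id4 was at 66.6 ± 12.6 CPM per kb and Bmpr1a at 42.1 ± 7.71 (SD, n = 4). They were followed by Id3 (28.4 ± 2.29), Id1 (20.2 ± 4.41) and Bmp7 (10.1 ± 2.78). The ranges of the sham samples did not overlap between neighbours from Id4 down to Bmp7. Below Bmp7 came Bmpr2 (4.63 ± 1.29), Bmp4 (3.30 ± 1.12), Bmp6 (3.09 ± 0.704), Bmpr1b (2.45 ± 0.461) and Bmp5 (2.24 ± 0.230), and here every neighbouring pair overlapped, Bmp7 and Bmpr2 included. Bmp7 thus had the highest level of the ligands and Bmpr1a the highest of the receptors. In the IUGR samples the mean levels were 60.4 CPM per kb for Id4, 39.2 for Bmpr1a, 19.6 for Id3, 15.0 for Id1 and 7.90 for Bmp7. Without T1-3 those of Id3, Id1 and Bmp7 were 14.4, 12.6 and 4.16.

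With T1-3 included, the ligand genes varied far more among the IUGR than among the sham libraries. Bmp4 (chr14:46383520-46390669 of GRCm38, minus strand), a ligand of the dorsal midline, was at 1.20, 14.6, 0.674 and 3.42 CPM in T1-1, T1-3, T1-4 and T1-5 and at 10.7, 7.27, 4.63 and 7.06 CPM in S1-4, S1-6, S3-1 and S3-4. T1-3 was the highest of the 8 and the other IUGR libraries were the lowest. Its raw counts were between 8 and 237, so T1-4 rests on 8 reads. The log2 fold change was −0.56 (standard error, SE, 0.75, unadjusted p = 0.475 with edgeR). With all 8 libraries, limma-voom put the log2 fold change of Bmp4 at −1.34 (unadjusted p = 0.0890), and those of Bmp5, Bmp6 and Bmp7 at −0.49, −0.95 and −0.67, all further below 0 than with edgeR.

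Bmp5 (chr9:75775364-75900310, plus strand), a close relative of Bmp6 and Bmp7, was at 3.30, 22.1, 2.19 and 7.98 CPM in T1-1, T1-3, T1-4 and T1-5 and at 9.71, 8.83, 9.73 and 7.77 CPM in S1-4, S1-6, S3-1 and S3-4. The sham libraries lay close together, with a ratio of highest to lowest of 1.25, against 10.1 in the IUGR libraries. The IUGR mean of 8.88 ± 9.14 CPM was nearly that of the sham group, 9.01 ± 0.925 CPM (SD, n = 4), and the log2 fold change was −0.01 (SE 0.58). The sign of this value turned under 6 of the 10 alternatives that left out no single sample, for instance to 0.02 with DESeq2's size factors.

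Bmp6 (chr13:38345107-38500302, plus strand) was at 3.00, 23.4, 2.19 and 6.84 CPM in T1-1, T1-3, T1-4 and T1-5 and at 13.2, 14.6, 8.24 and 12.2 CPM in S1-4, S1-6, S3-1 and S3-4. Its log2 fold change was −0.43 (SE 0.62, unadjusted p = 0.498 with edgeR). It overlaps Txndc5 on the opposite strand. The library kit keeps strand, but the strand setting of the counting is not given in the sources used here, so that reads of these neighbours may be shared.

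Bmp7 (chr2:172868012-172940321, minus strand), which the hem, choroid plexus and meninges are known to make, was at 19.9, 76.9, 9.86 and 20.5 CPM in T1-1, T1-3, T1-4 and T1-5 and at 42.9, 48.5, 24.0 and 46.3 CPM in S1-4, S1-6, S3-1 and S3-4. T1-3 was the highest library, and the remaining IUGR libraries lay below the lowest sham library, S3-1. The log2 fold change was −0.34 (SE 0.53, unadjusted p = 0.532 with edgeR).

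All 4 ligand genes followed the same order over the IUGR libraries, with T1-3 highest, then T1-5, T1-1 and T1-4. The sum of the 4 in that order, was 137, 38.7, 27.4 and 14.9 CPM. In the sham libraries S1-4, S1-6, S3-1 and S3-4 it was 76.5, 79.2, 46.6 and 73.3 CPM. T1-3 thus exceeded the highest sham library, and the other IUGR libraries lay below the lowest. The ratio of T1-3 to the mean of the other IUGR libraries was 8.25 for Bmp4, 5.82 for Bmp6, 4.91 for Bmp5 and 4.60 for Bmp7. Over these genes the coefficient of variation ran from 95.9% to 131% among IUGR and from 10.3% to 33.8% among sham libraries. Without T1-3 the IUGR values were 82.6% for Bmp4, 68.5% for Bmp5, 62.0% for Bmp6 and 35.6% for Bmp7. For Bmp7 the ratio of highest to lowest was then 2.07, near the sham ratio of 2.02.

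Promoter sequence is shown for 3 genes that cover these patterns, namely Bmp4, the ligand that differed most between libraries, Bmp5, the ligand with the narrowest sham range, and Id4, the Id gene with the highest level. Each is the stretch just upstream of the start of transcription in RefSeq (GRCm38.p6), in gene orientation, of 250 bases for Bmp4 (chr14:46390670-46390919, minus strand) and Id4 (chr13:48260866-48261115, plus strand) and 249 bases for Bmp5 (chr9:75775115-75775363, plus strand). RefSeq windows matched 8 of the 10 genes. Capitals mark matches, on either strand, to CAGAC (a Smad binding element), GGCGCC (a GC-rich Smad1/5 element) or CAAAG (the core of the Tcf/Lef motif).
Bmp4: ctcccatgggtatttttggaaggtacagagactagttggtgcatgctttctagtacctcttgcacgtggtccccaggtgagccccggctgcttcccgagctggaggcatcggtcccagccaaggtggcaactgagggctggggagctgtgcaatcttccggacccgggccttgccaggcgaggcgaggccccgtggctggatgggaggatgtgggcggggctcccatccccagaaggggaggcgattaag
Bmp5: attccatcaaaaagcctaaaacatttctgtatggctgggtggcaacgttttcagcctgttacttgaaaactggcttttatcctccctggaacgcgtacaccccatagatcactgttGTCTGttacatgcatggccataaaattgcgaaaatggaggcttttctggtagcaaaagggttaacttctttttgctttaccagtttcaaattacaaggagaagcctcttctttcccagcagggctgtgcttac
Id4: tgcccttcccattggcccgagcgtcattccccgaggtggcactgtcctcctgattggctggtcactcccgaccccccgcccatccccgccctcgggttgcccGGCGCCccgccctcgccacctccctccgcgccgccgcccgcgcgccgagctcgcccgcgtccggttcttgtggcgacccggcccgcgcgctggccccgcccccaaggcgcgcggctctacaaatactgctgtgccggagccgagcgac
The Bmp4 window held none of these strings. The Bmp5 window held CAGAC once, on the minus strand, beginning 134 bases before the start. The Id4 window held GGCGCC once, at 148 bases before the start. Among 32851 RefSeq windows of 250 bases, 42.2% held CAGAC, 9.59% GGCGCC and 48.6% CAAAG, so that these matches are a description of the sequence alone.

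The group means of the receptor genes were close together, and the sham libraries spread more than the IUGR libraries. Bmpr1a (chr14:34410734-34503341, minus strand), a widely expressed type I receptor, was at 236, 225, 276 and 260 CPM in T1-1, T1-3, T1-4 and T1-5 and at 225, 250, 257 and 338 CPM in S1-4, S1-6, S3-1 and S3-4. The ranges overlapped and T1-3 was the lowest IUGR library. The log2 fold change was −0.10 (SE 0.15, unadjusted p = 0.496 with edgeR), and it was 0.07 against the S1 sham samples alone.

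Bmpr1b (chr3:141837136-142169425, minus strand), the type I receptor of narrower expression, was at 20.4, 14.7, 16.6 and 14.7 CPM in T1-1, T1-3, T1-4 and T1-5 and at 10.5, 16.6, 15.5 and 15.7 CPM in S1-4, S1-6, S3-1 and S3-4. T1-1 was the highest library and S1-4 the lowest, and the rest overlapped. On the log2 scale the difference between IUGR and sham was 0.18 (SE 0.20, unadjusted p = 0.371 with edgeR), the only value above 0 among the 10 genes with all libraries.

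Bmpr2 (chr1:59763400-59879014, plus strand), the type II receptor, was at 85.5, 79.5, 75.5 and 76.6 CPM in T1-1, T1-3, T1-4 and T1-5 and at 76.2, 112, 56.9 and 87.8 CPM in S1-4, S1-6, S3-1 and S3-4. The sham libraries spread on both sides of the IUGR libraries. For IUGR against sham the log2 fold change was −0.07 (SE 0.19, unadjusted p = 0.714 with edgeR), and it was 0.15 against the S3 sham samples alone. For these receptors the coefficient of variation ran from 5.66% to 16.2% among IUGR and from 18.3% to 27.8% among sham libraries, and in sham that of Bmpr2 was as large as that of Bmp7 (27.7%).

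Id1 and Id3 had lower group means in IUGR than in sham samples, with T1-3 again the highest of the IUGR libraries. Id1 (chr2:152736251-152737410, plus strand) was at 10.6, 25.9, 14.3 and 18.8 CPM in T1-1, T1-3, T1-4 and T1-5 and at 28.0, 27.8, 18.8 and 19.2 CPM in S1-4, S1-6, S3-1 and S3-4. The groups overlapped through T1-3, and T1-5 lay just under S3-1 (18.78 and 18.83 CPM). Its log2 fold change was −0.43 (SE 0.27, adjusted p = 0.749 with edgeR), and an exact two-sided permutation test gave p = 0.143, where the smallest p possible with 4 against 4 is 0.0286.

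Id3 (chr4:136143497-136145755, plus strand), which often shares its sites of expression with Id1, was at 25.2, 62.9, 20.6 and 31.6 CPM in T1-1, T1-3, T1-4 and T1-5 and at 51.9, 48.6, 46.7 and 56.0 CPM in S1-4, S1-6, S3-1 and S3-4. T1-3 was the highest of the 8, and the other IUGR libraries lay below all sham libraries. The sham libraries were close together, at 50.8 ± 4.10 CPM against 35.1 ± 19.1 CPM in IUGR (SD, n = 4). EdgeR put the log2 fold change at −0.53 (SE 0.30, adjusted p = 0.652 with edgeR), and the exact two-sided permutation p was 0.143.

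Id4 (chr13:48261228-48266026, plus strand), an Id gene of neural progenitors, was at 297, 199, 240 and 194 CPM in T1-1, T1-3, T1-4 and T1-5 and at 207, 226, 311 and 282 CPM in S1-4, S1-6, S3-1 and S3-4. The groups overlapped in part, with T1-3 and T1-5 below every sham library and S3-1 above every IUGR library. T1-3 was not the highest IUGR library for Id4. On the log2 scale the difference between IUGR and sham was −0.14 (SE 0.18, unadjusted p = 0.445 with edgeR), and it was 0.10 against the S1 sham samples alone. Id4 overlaps A330033J07Rik on the opposite strand, with the same limit as for Bmp6.

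Of the fits that left out a library, the 1 without T1-3 gave the lowest values for all 4 ligands, Id1 and Id3. This comparison of 3 IUGR with 4 sham libraries was 1 of 8 fits that each left out a library, and T1-3 is singled out here because of its values. Without it, the log2 fold change was −2.03 (SE 0.51) for Bmp4, −1.56 (0.39) for Bmp6, −1.25 (0.31) for Bmp7 and −0.97 (0.39) for Bmp5. The edgeR adjusted p was 0.102 for Bmp4, 0.0996 for Bmp6, 0.102 for Bmp7 and 0.387 for Bmp5, so that no ligand was called. For Bmp4 the remaining IUGR libraries had a mean of 1.77 ± 1.46 CPM (SD, n = 3) against 7.42 ± 2.51 CPM (SD, n = 4) in sham, and for Bmp7 these means were 16.7 ± 5.95 and 40.4 ± 11.2 CPM.

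Id3 had a log2 fold change of −0.95 (SE 0.17) without T1-3 and an edgeR adjusted p of 0.0308, and Id1 one of −0.65 (SE 0.25, adjusted p = 0.352). Id3 passed the criterion on the adjusted p but not that on the fold change. Of the 10 genes, 6 had an unadjusted edgeR p under 0.05 and were lower in IUGR, namely Bmp4, Bmp5, Bmp6, Bmp7, Id1 and Id3, against 7.03% of all tested genes. With the TMM factors refitted on the 7 libraries, the groups did not overlap for 4 of them, Bmp4, Bmp6, Bmp7 and Id3, all lower in IUGR, against 6.67% of all tested genes. With the factors of all 8 libraries kept, which give the CPM values above, Id1 joined them, which made 5, against 7.25% of all tested genes. T1-3 was the highest IUGR library for Bmp4, Bmp5, Bmp6, Bmp7, Id1 and Id3, so leaving it out lowers their IUGR means by construction. The shares over all tested genes hold no such choice, so the counts of members and these shares are not a like comparison. Id1 turns on T1-5 and S3-1, at 18.78 and 18.83 CPM on the scale of 8 libraries and 18.68 and 18.29 CPM on that of 7. An adjusted p of at most 0.05 with a lower level in IUGR was reached by 1 of the 10 (Id3) and by 1.65% of all tested genes, and with the fold change criterion in either direction by 0 of the 10 and 1.54% of all tested genes. With 3 against 4 libraries, on CPM with the factors of all 8, the exact two-sided permutation p was 0.0571 for Bmp4, Bmp6, Bmp7, Id1 and Id3, which is the smallest possible, and the design cannot reach 0.05.

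The receptors and Id4 stayed near 0 without T1-3, with log2 fold changes of −0.03 for Bmpr1a, 0.27 for Bmpr1b, −0.04 for Bmpr2 and −0.04 for Id4. Leaving out another IUGR library moved Bmp4, Bmp6 and Bmp7 toward 0. Without T1-4 the log2 fold change was −0.20 for Bmp4, −0.12 for Bmp6 and −0.05 for Bmp7, and without T1-1 it was −0.21, −0.12 and −0.15. Bmp7 was also at −0.18 without T1-5 and −0.22 without S1-6, and Bmp4 at −0.32 without S1-4. Id1 was at −0.22 without T1-1, and Id3 at −0.35 without T1-4.

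By role, the median log2 fold change went from −0.39 to −1.40 for the ligands and from −0.43 to −0.65 for the Id genes when T1-3 was left out. For the receptors it was −0.07 and −0.03, and for all tested genes −0.02 and 0.02.

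**Figure D2:**
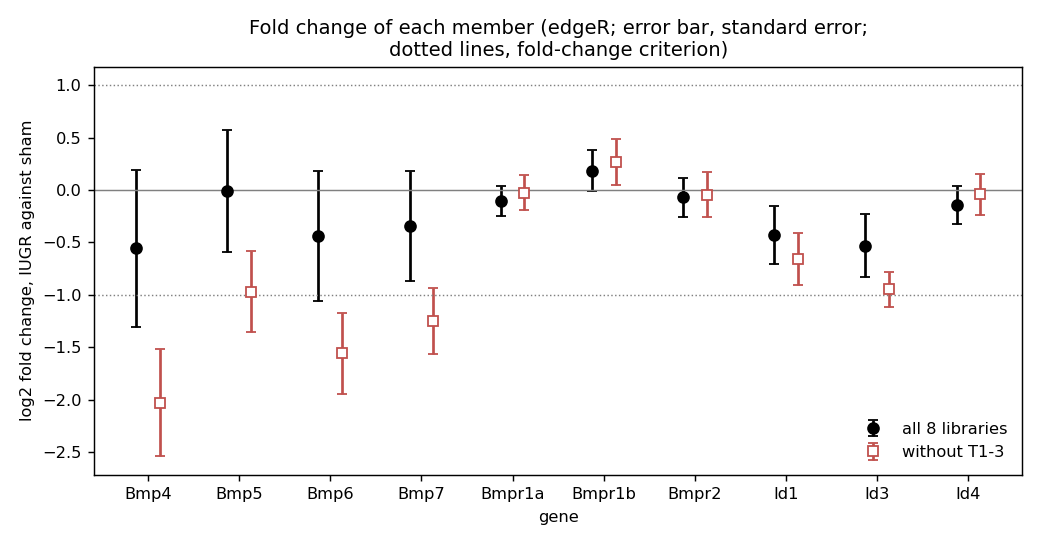
Log2 fold change of IUGR against sham for each gene from edgeR with its standard error, with all 8 libraries (filled) and without T1-3 (open), and dotted lines at the fold change criterion of 1. The open points of the ligands lie between −2.03 and −0.97, while those of the receptors and Id4 lie between −0.04 and 0.27.

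The other genes of the pathway were taken from 7 lists of ligands, receptors, coreceptors, Smad proteins, antagonists, BMP-induced genes and E proteins, with 46 genes of which 35 were tested. The edgeR test gave 20 of the 35 a value below 0 and 15 a value above 0, with a median log2 fold change of −0.01. Only Gdf5 was called. An unadjusted p under 0.05 was found for 8 lower and 2 higher genes, 28.6% of the 35 against 11.1% of all tested genes. The 9 listed genes Bmp8a, Bmp8b, Bmp10, Bmp15, Gdf2, Gdf6, Hjv, Chrdl2 and Cer1 were not analysed here, and Gdf7 and Fstl3 were under the count minimum.

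Among the ligands, Gdf5, a BMP-family factor best known from joints, fell in IUGR offspring. It was at 1.80, 5.96, 1.01 and 2.05 CPM in T1-1, T1-3, T1-4 and T1-5 and at 21.9, 11.7, 14.6 and 11.98 CPM in S1-4, S1-6, S3-1 and S3-4, so that every IUGR library, T1-3 included, lay below every sham library. For IUGR against sham the log2 fold change was −2.45 (SE 0.48, adjusted p = 0.0348 with edgeR). The call was lost on leaving out any of 7 libraries (adjusted p between 0.0529 and 0.107) and held without T1-3 (adjusted p = 0.00698). Bmp3, the other ligand named by its level, had a log2 fold change of 0.92 (SE 0.53, adjusted p = 0.675), which was 1.61 without S3-4 and 1.68 against the S1 sham samples alone.

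Of the signalling genes, the receptor Acvr2a had a log2 fold change of 0.37 (adjusted p = 0.454 with edgeR) and the coreceptor Rgmb one of 0.22 (adjusted p = 0.547). Smad5, the Smad gene with the highest level, was at 306 ± 40.8 CPM in the IUGR samples and 306 ± 20.5 CPM in the sham samples (SD, n = 4). The inhibitory Smad6, itself induced by BMP signals, was at 5.84, 10.1, 4.63 and 5.70 CPM in T1-1, T1-3, T1-4 and T1-5 and between 11.7 and 14.4 CPM in sham, without overlap. Its log2 fold change was −0.98 (SE 0.25, adjusted p = 0.101 with edgeR), and DESeq2's adjusted p was 0.0184. Smad9 also had no overlap between groups, with 0.896 ± 0.919 CPM in IUGR against 3.03 ± 1.01 CPM in sham (SD, n = 4), with an adjusted p of 0.366 with edgeR on counts that went down to 1.

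Of 4 other BMP-induced genes, Msx1, Msx2 and Atoh8 had lower values in all IUGR than in all sham libraries, with none called by edgeR, and 5.06% of all tested genes were lower without overlap. Msx1, a homeobox gene of the dorsal midline, was at 3.30, 23.2, 0.758 and 12.55 CPM in T1-1, T1-3, T1-4 and T1-5 and at 45.4, 38.0, 27.8 and 39.1 CPM in S1-4, S1-6, S3-1 and S3-4 (log2 fold change −1.90, adjusted p = 0.292 with edgeR). It shared the high position of T1-3 among the IUGR libraries, but stayed under the sham range. Msx2 had a log2 fold change of −2.21 (adjusted p = 0.118 with edgeR and 0.0480 with DESeq2) and Atoh8 one of −0.95 (adjusted p = 0.379). The Msx2 values rest on counts between 1 and 32. Id2 was at 101 ± 41.2 CPM in IUGR against 84.9 ± 43.5 CPM in sham (SD, n = 4), with a log2 fold change of 0.25.

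The 12 tested antagonists divided into 5 below and 7 above 0. Sostdc1, an antagonist that the choroid plexus also makes, was at 0.974, 11.5, 0.506 and 14.8 CPM in T1-1, T1-3, T1-4 and T1-5 and at 65.3, 53.3, 32.4 and 47.0 CPM in S1-4, S1-6, S3-1 and S3-4. Its groups did not overlap (log2 fold change −2.82, adjusted p = 0.127 with edgeR and 0.0312 with limma-voom). Nbl1 was at 44.7 CPM in T1-3 and between 5.57 and 12.8 CPM in the other 7 libraries, and its log2 fold change went from 1.17 to 0.33 without T1-3. Chrdl1 had a log2 fold change of 0.59 (adjusted p = 0.410 with edgeR) and Fstl1, the antagonist-list gene with the highest level, one of 0.03, which was −0.24 without T1-3. Of the E proteins that Id proteins bind, Tcf4 had a log2 fold change of −0.53 (adjusted p = 0.393 with edgeR).

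**Figure D3:**
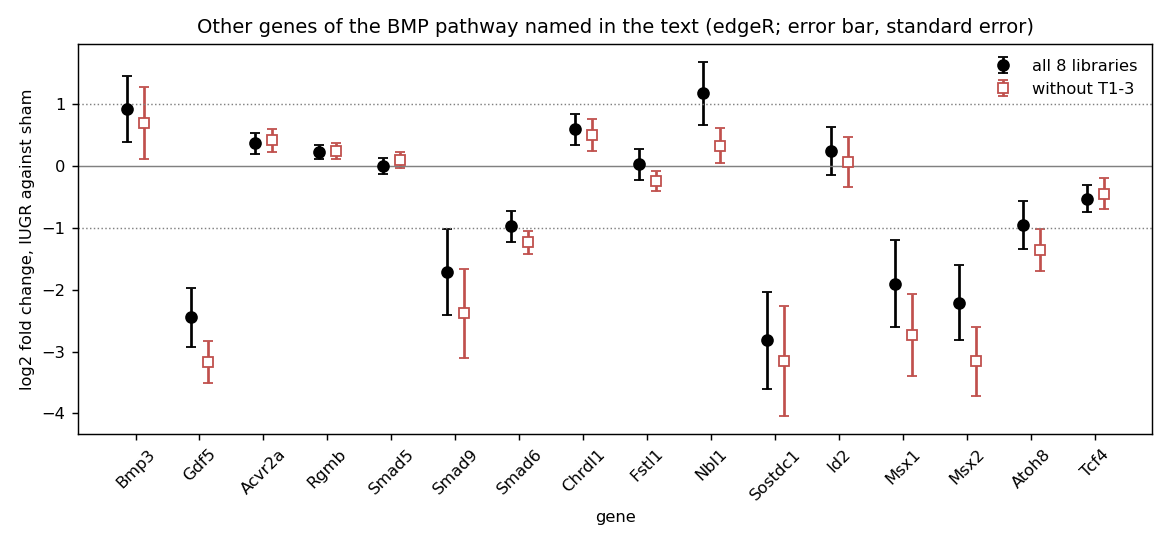
Log2 fold change with standard error from edgeR for the 16 other pathway genes named, with all 8 libraries (filled) and without T1-3 (open). Gdf5, at −2.45, is the gene called with all libraries, and Nbl1 moves from 1.17 to 0.33 when T1-3 is left out.

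Marker genes of other cell types were summed in each library to set beside the members. The 10 meningeal markers, among them the collagens Col3a1 and Col1a2, summed to 414, 2908, 80.2 and 836 CPM in T1-1, T1-3, T1-4 and T1-5 and to 530, 658, 502 and 333 CPM in S1-4, S1-6, S3-1 and S3-4. Over the IUGR libraries this is the order of the 4 ligand genes and of Id3, and the sums of the endothelial and the choroid plexus markers follow the same order, with T1-5 and T1-1 nearly tied in the endothelial sum. By mean log2 CPM the meningeal markers kept this order, whereas T1-5 was above T1-3 for the choroid plexus (3.00 and 2.94) and T1-1 above T1-5 for the endothelium (4.88 and 4.87). Over the sham libraries the ligand sum had the order of the meningeal sum except for S3-1 (46.6 CPM) and S3-4 (73.3 CPM), which changed places. Id3 did not follow the meningeal sum there, being highest in S3-4 (56.0 CPM), where that sum was lowest. Col3a1 alone was at 1310 CPM in T1-3 and between 22.5 and 310 CPM in the other libraries. The 9 endothelial markers were also all highest in T1-3 among the IUGR libraries, with sums between 234 and 412 CPM in IUGR and between 225 and 327 CPM in sham. The median log2 fold change of the meningeal markers was 1.20 with all libraries and −0.02 without T1-3. The latter does not mean that the remaining libraries were alike. Their mean log2 CPM was 4.08 in T1-1, 2.22 in T1-4 and 5.50 in T1-5, against 3.96 to 5.26 in sham. T1-4 thus lay below every sham library and T1-5 above.

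Markers of the dorsal midline tissues moved with the groups. Of 14 listed choroid plexus markers, Ttr and Prlr were not tested and are not in the sums. The 12 tested choroid plexus markers, all with values below 0, summed to between 45.4 and 324 CPM in IUGR and between 764 and 1137 CPM in sham libraries, and 4 of them were called lower by edgeR (5 without T1-3). The 6 cortical hem markers, of which edgeR called 6 lower with all libraries and 4 without T1-3, summed to between 41.1 and 85.8 CPM in IUGR and between 189 and 335 CPM in sham libraries. Most of these hem markers are genes that the study itself reported as decreased in these same samples. Their calls were therefore known beforehand and are not separate evidence. In T1-3 these sums were 324 CPM for choroid plexus and 67.3 CPM for the hem, below every sham library, while its ligand sum was above every sham library. The 7 neuronal markers summed to between 4835 and 5192 CPM in IUGR and between 3491 and 4415 CPM in sham, and the 8 radial glia markers to between 2944 and 3499 and between 3126 and 3773 CPM. No tested marker was at 0 counts in any library. The part of the meningeal, endothelial, choroid plexus, hem, neuronal and glial RNA in the ligand and Id values was not tested.

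**Figure D4:**
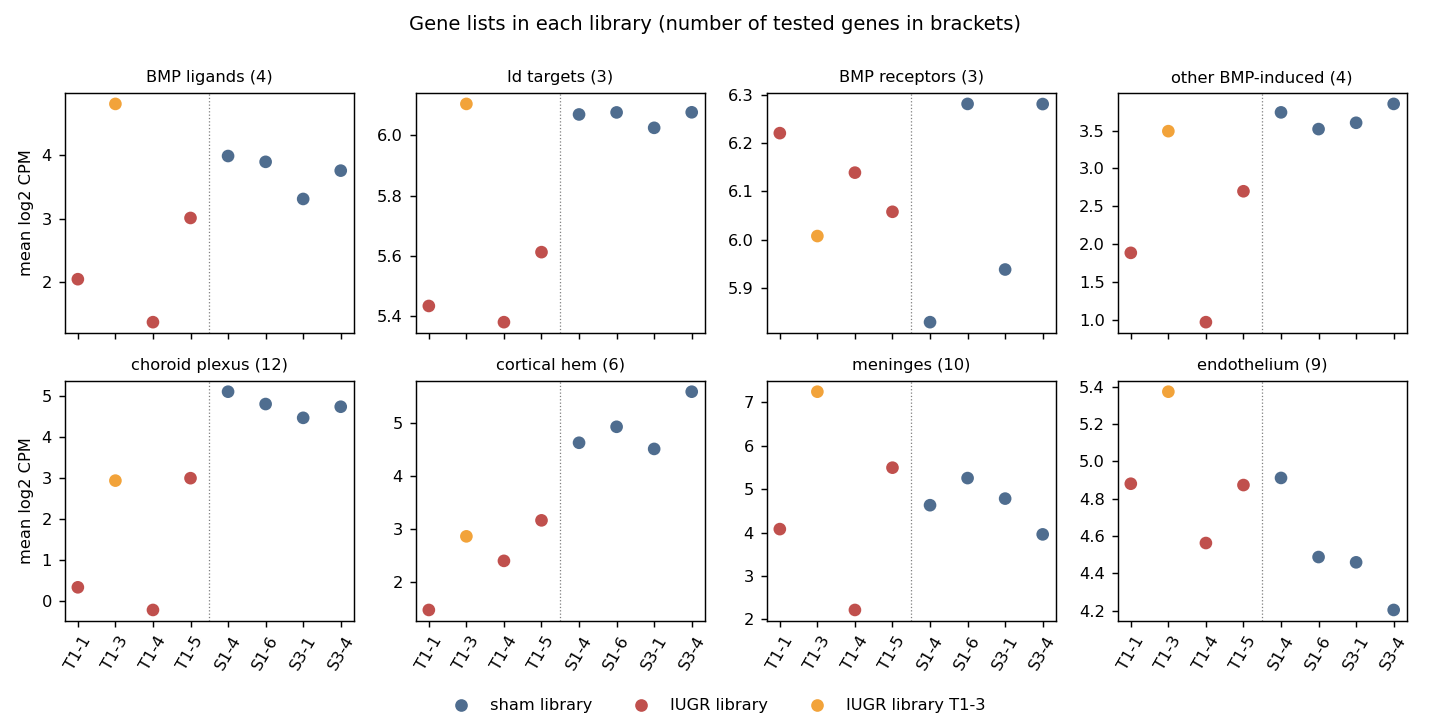
Mean log2 CPM of the genes of each list in every library, with the number of tested genes in brackets and a separate linear axis in each panel. T1-3 is the highest library for the BMP ligands (4.79) and the meningeal markers (7.25), and lies below all sham libraries for the choroid plexus (2.94) and cortical hem (2.86) markers.

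Genes whose profile over the 8 libraries lay nearest to that of Id3, Id1 and Bmpr1b, the members with the smallest p values, were sought among 13706 tested genes by the root mean square difference of centred log2 CPM. For Id3 these were Lrig3 (0.148), Lhfpl2 (0.151) and Leprel4 (0.160). For Id1 they were Lacc1 (0.149), Arhgef28 (0.168) and Lppr4 (0.170). For Bmpr1b they were Shisa2 (0.0993), Tuba1b (0.116) and Ankrd6 (0.117), in log2 units over the 8 libraries in each case. This is a description of likeness of profile across libraries.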

How the data were processed

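Ribosomal RNA was removed and stranded total RNA libraries were sequenced as single reads. The authors deposited a table of raw read counts, not normalized, with a gene in each line and a column for each sample. The submitters' processing notes name Novoalign 2.8 and the build mm10 (GRCm38). The counting program, annotation release and strand setting are not given in the sources used here. Each sample was put in its group by the treatment label.

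Of 16397 identifiers, 16124 matched GENCODE M21, 14564 of them protein-coding. The filter kept those whose counts averaged 10 or more and less than 50000 over the samples, which left 13707. Counts were compared with edgeR 4.0.16 in R 4.3.3, by TMM normalization and the quasi-likelihood test without covariates, and p values were adjusted by Benjamini and Hochberg's procedure across the 13707 genes. Calls needed an adjusted p no higher than 0.05 and an absolute log2 fold change no lower than 1. The standard error is the log2 fold change over the square root of its F statistic. Log2 CPM used a prior count of 2. Exact permutation tests were two-sided, on the difference of mean CPM. Levels per kilobase used the summed exons of GENCODE M21.

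The 10 members and all lists were chosen with earlier results of these data known. Besides the members, the genes named were those of the other pathway lists with an unadjusted p under 0.05 or the highest mean CPM of their list, at most 2 genes of a marker list by mean CPM, and the 3 nearest profiles of the 3 members with the smallest p. Prox1, named after its values were seen, and listed genes that were not tested are named in addition. Alternatives were DESeq2 1.42.0, limma-voom (limma 3.58.1), other normalizations and filters, the S1 or S3 sham samples alone and leaving out each sample. The procedure was tested on simulated data.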

Additional observations from a re-analysis of the deposited data

Results flagged for a closer look

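Bmp7 in the IUGR library T1-3, at 76.9 CPM, lay far from the other IUGR libraries, which were between 9.86 and 20.5 CPM. The gap to the nearest of them was 0.842 of the range of the group, past Dixon's 95% critical value for 4 samples. The test was run on each of the 10 genes in each group, 20 combinations in all, and chance flags about 1 in 20. This was the 1 combination past the critical value. Bmp4, Bmp5 and Bmp6 were also highest in T1-3 among the IUGR libraries, without passing it.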

How the results depend on the processing

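Of 180 combinations of the 10 genes with 18 alternatives, 163 kept their direction and their side of the threshold, 17 turned direction and 6 genes never turned. None of the 18 alternatives called a member. The smallest adjusted p was 0.437 apart from the fit without T1-3, and 1 member (Id3) was called by the adjusted p alone with T1-3 left out, an alternative chosen after seeing the data. Members without overlap numbered 1 (Id1) against the S1 sham samples alone, where 15.6% of all tested genes did not overlap, and between 0 and 4 when 1 sample was left out (4 without T1-3, against 10.002% of all tested genes in either direction, and 5 with Id1 where the TMM factors of all 8 samples were kept, an alternative chosen after seeing the data). Limma-voom moved Bmp4 to −1.34, Bmp5 to −0.49, Bmp6 to −0.95 and Bmp7 to −0.67. Bmp5 turned to 0.016 with DESeq2's size factors, 0.031 with upper-quartile normalization, 0.0088 with DESeq2's test, 0.017 without a filter, 0.041 with filterByExpr and 0.053 against S3 alone, and ranged from −0.97 to 0.31 on leaving out 1 sample. Bmpr1a was 0.070 against S1 alone (−0.16 to 0.030 on leaving out 1 sample), Bmpr2 0.15 against S3 alone (−0.22 to 0.14) and Id4 0.10 against S1 alone. Of the other pathway genes, 2 were called with DESeq2 (Gdf5 and Msx2) and 2 with limma-voom (Gdf5 and Sostdc1), 0 against S1 or S3 alone, and between 0 and 3 on leaving out 1 sample (3 without T1-3, namely Gdf5, Smad6 and Msx2). Smad5 turned to 0.019 with both other size factors and DESeq2's test, 0.035 without a filter and with filterByExpr, 0.0018 over all genes of the table and 0.045 against S3 alone, with a range from −0.049 to 0.097 on leaving out 1 sample. Fstl1 turned to −0.044 with limma-voom and −0.0026 against S1 alone (−0.24 to 0.20 on leaving out 1 sample), and Id2 to −0.20 against S3 alone. Over all genes, 425 were called with DESeq2, 328 with limma-voom, 0 against S1 alone, 2 against S3 alone and between 41 and 298 on leaving out 1 sample, against 200. The cause of these changes was not tested. No paired analysis was possible because the meaning of the numbers in the sample names is not given in the sources used here. The depth of 8 reads for Bmp4 in T1-4 limits its fold change, and 4 samples per group limit every exact test.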
